A study of Mus musculus with 20 samples.

Results

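Mild cold during gestation, 18 °C, was compared with thermoneutral gestation, 30 °C, in the livers of adult sons. Each array held the liver RNA of 1 male C57BL/6NCr mouse, an inbred laboratory strain, aged 4 to 5 months, and 5 arrays titled for each maternal temperature were compared, with every difference given as 18 °C minus 30 °C. Wild-type dams of the 18 °C group had 2 weeks at their temperature before they were mated, and 30 °C dams 3 weeks, so the length of acclimation moved with the temperature. Sires spent only 3 days at it. On the day of birth every dam and litter was moved to 23 °C, where the sons stayed on standard chow until their livers were taken. The housing temperatures therefore differed only up to birth, and all sons were measured at one housing temperature. A further 5 sons of 23 °C dams, the animal house standard, and 5 sons of 10 °C dams entered the fit for the spread between arrays. The labels name no litter, feeding state or time of day, so p-values here measure the spread between these arrays.

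The 9413 transcript clusters described below carry 1 gene symbol each and have a mean over the 20 arrays above log2 4.7465, the highest of the 20 array means of the negative control rows. They are 9413 of 19572 named clusters and of 22206 clusters in all, and they hold 9386 symbols. Prr5 and Fam219b lay just inside the threshold, both at 4.747, and H1f1 and Lmnb1 just outside it, both at 4.746. That threshold rests on control means, and the 95th percentile of the negative controls was higher, at log2 7.58. Of the described clusters, 5470 had a mean above 7.58. A described gene with a mean under 7.58 is therefore less clearly told from the controls. Single arrays are named by maternal temperature and animal number. Where values are listed, they stand in the order of 18 °C animals 1, 3, 4, 5 and 7 and 30 °C animals 4, 5, 6, 7 and 8.

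As background, thermoneutrality for a mouse lies near the upper of these temperatures, and a mouse kept below it makes heat in brown fat, fuelled by lipid and glucose that the liver supplies and stores. The liver turns carbohydrate into fatty acids and cholesterol under SREBP and ChREBP, oxidises fatty acids under PPARA, makes glucose in fasting, and secretes most plasma proteins. Hepatocytes also carry the machinery by which type I interferon, acting through its receptor on the cell surface, switches on antiviral genes that share a short promoter motif.

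That motif was sought in the promoters of the described genes, as 1 of 10 motifs searched, most of which are not given here. The interferon-stimulated response element, searched as GAAANNGAAA on both strands of the 250 bases before each gene's start, was found in 15 of 29 interferon response genes with a promoter in the RefSeq table, against 3.13% of the 7690 described genes that have one. Ifit1 had the smallest p of the list, and it is shown with Ifit3b and Gbp3, which also hold the element within 200 bases of their start. The sequences are the 200 bases before each start on GRCm38.p6, plus strand, at chr19:34640689-34640888, chr19:34607757-34607956 and chr3:142559844-142560043, with the element in capitals. It reads along the reverse strand in all 3.
Ifit1: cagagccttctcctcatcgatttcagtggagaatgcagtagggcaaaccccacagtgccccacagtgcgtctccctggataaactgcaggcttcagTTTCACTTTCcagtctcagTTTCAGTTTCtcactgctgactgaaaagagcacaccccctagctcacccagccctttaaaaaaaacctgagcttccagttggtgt
Ifit3b: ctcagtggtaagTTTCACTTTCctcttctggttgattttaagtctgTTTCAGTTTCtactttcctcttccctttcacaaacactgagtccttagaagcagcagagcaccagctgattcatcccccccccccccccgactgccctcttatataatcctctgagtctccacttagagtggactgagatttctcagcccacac
Gbp3: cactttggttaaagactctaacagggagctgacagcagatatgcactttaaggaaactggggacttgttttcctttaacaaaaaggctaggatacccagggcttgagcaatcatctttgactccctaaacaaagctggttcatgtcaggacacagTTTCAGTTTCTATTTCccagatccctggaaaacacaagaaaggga
The pair of elements in Ifit1 and in Ifit3b, and the overlapping pair in Gbp3, are matches of letters and not measured sites. Interferon genes with a match had a median log2 difference of 0.33, with 13 of 15 higher in 18 °C sons, and those without one a median of 0.24, with 11 of 14 higher. For the cholesterol genes described later, CCAAT on either strand was present in 14 of 14 promoters, against 40.9% of all, and the sterol element TCACNCCAC in 1 of 14, against 1.35%. That gene is Hmgcs1, which joins acetyl groups into the precursor of mevalonate and is shown at chr13:119690151-119690350, plus strand, with CCAAT, here read as ATTGG, and the sterol element in capitals.
Hmgcs1: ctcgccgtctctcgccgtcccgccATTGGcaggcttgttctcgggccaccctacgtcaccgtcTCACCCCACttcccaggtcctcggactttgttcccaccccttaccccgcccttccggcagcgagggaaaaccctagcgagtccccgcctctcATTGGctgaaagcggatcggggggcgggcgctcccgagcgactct

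Among all 22206 clusters, 0 passed limma's moderated test at a Benjamini-Hochberg adjusted p of 0.05 (0%), and hence 0 of the 9413 described clusters (0%). At an unadjusted p under 0.05, 935 clusters were higher in 18 °C sons (4.21%) and 888 lower (4%), while a share of 0.05 of all clusters is 1110.3 in both directions together. Of the described clusters, 442 were higher (4.7%) and 546 lower (5.8%). The 5 arrays of one temperature all lay above the 5 of the other in 142 clusters higher (0.639%) and 172 lower (0.775%) among all, and in 77 higher (0.818%) and 121 lower (1.29%) among those described. Among the 2353 brightest described clusters, above log2 10.3, the arrays lay apart in 63 lower and 27 higher. The median difference of the described clusters was -0.02, with 46.8% higher, and 71 differed by over 1 on the log2 scale, 54 of them higher.

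**Figure D1:**
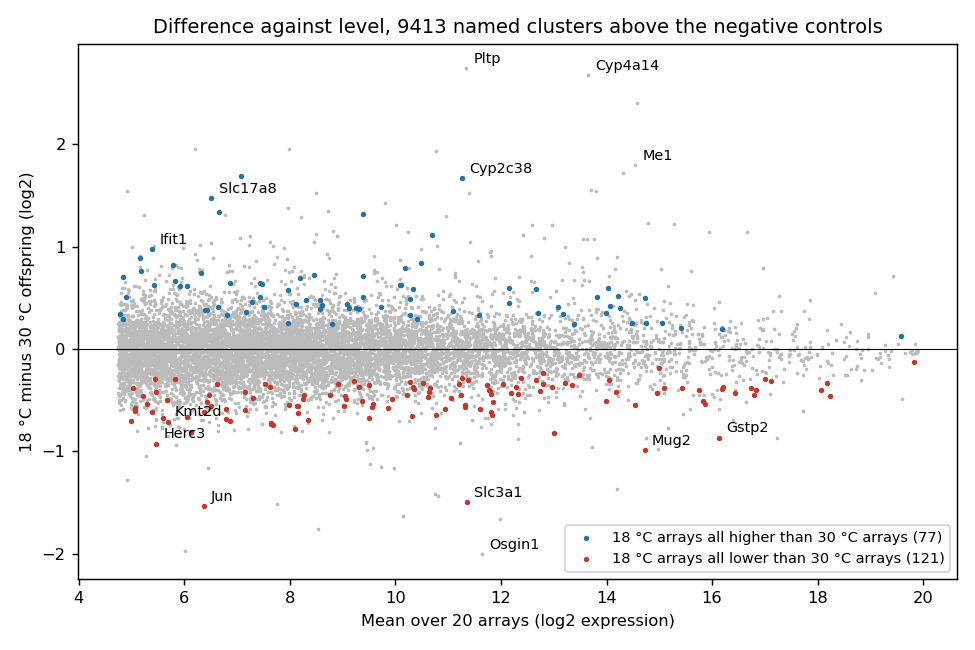
Log2 difference of group means, 18 °C minus 30 °C sons, against mean log2 level over 20 arrays for the 9413 described clusters (grey points). Blue points mark 77 clusters in which every 18 °C array lay above every 30 °C array, red points 121 in which every one lay below, and most of the largest differences, such as Pltp and Cyp4a14, are grey because their arrays overlap.

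No array measure passed after adjustment over the measures. The negative control rows averaged 4.49 ± 0.07 (SD, n = 5) on 18 °C and 4.59 ± 0.06 on 30 °C arrays (exact permutation p = 0.0397, adjusted p = 0.139 over the array measures), and the first principal component of the described clusters averaged 13.4 ± 10.3 and -6.30 ± 10.3 (exact permutation p = 0.0238, adjusted p = 0.139). Correlations between arrays over all clusters were 0.987 to 0.993. The defining hepatocyte genes were bright on all arrays, and 9 of 9 described differed by between -0.25 and -0.01.

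Ifit1 and Mug2 had the smallest p-values. Ifit1, an interferon-induced protein that binds viral RNA lacking the host's cap marks, stood at log2 5.56, 5.85, 6.26, 5.99 and 5.99 in 18 °C animals and 4.71, 5.15, 5.02, 4.74 and 5.15 in 30 °C animals. All 18 °C arrays were above all 30 °C arrays, with a gap between 18 °C animal 1 and 30 °C animals 5 and 8. The difference was 0.98 ± 0.16 (SE, limma adjusted p = 0.0652), and the 23 °C and 10 °C means of 5.15 ± 0.22 and 5.53 ± 0.30 (SD, n = 5) lay between the 2 groups. Levels this near the negative controls are compressed, so the difference may be understated.

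Mug2, a murinoglobulin, one of the plasma protease traps of the alpha-2-macroglobulin family, stood at 14.18, 14.04, 14.14, 13.81 and 14.11 in 18 °C animals and 14.71, 14.98, 15.22, 14.90 and 15.41 in 30 °C animals. The 18 °C values spanned a narrow band, all below the lowest 30 °C value, that of animal 4. The difference was -0.99 ± 0.17 (limma adjusted p = 0.0652), and 23 °C sons, at 15.06 ± 0.30, were level with 30 °C sons. Murinoglobulin genes are near copies of each other, and the probes may not separate them.

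Kmt2d and Herc3 followed among the genes lower in 18 °C sons. Kmt2d, a methyltransferase that marks enhancers on histone H3, stood at 4.95, 5.35, 5.11, 5.55 and 5.40 in 18 °C animals and 5.83, 6.10, 5.89, 6.17 and 5.93 in 30 °C animals. No arrays overlapped, and the difference was -0.71 ± 0.14 (limma adjusted p = 0.143). Herc3, a HECT-type ubiquitin ligase, stood at 5.01, 4.58, 5.11, 5.15 and 5.09 in 18 °C animals and 5.97, 5.73, 6.07, 5.92 and 5.89 in 30 °C animals, again with no overlap and with 18 °C animal 3 the lowest. Its difference was -0.93 ± 0.19 (limma adjusted p = 0.267), with 23 °C sons at 5.15 ± 0.32, near the 18 °C group, and 10 °C sons at 5.80 ± 0.47, near the 30 °C group. None of these 4 differences passed, and Ifit1, Mug2 and Herc3 did so only under settings named in the closing part. Of the 4 genes, only Mug2 had a 20-array mean above log2 7.58. The means of Ifit1, Kmt2d and Herc3 were 5.39, 5.68 and 5.46, so their signals are weak.

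**Figure D2:**
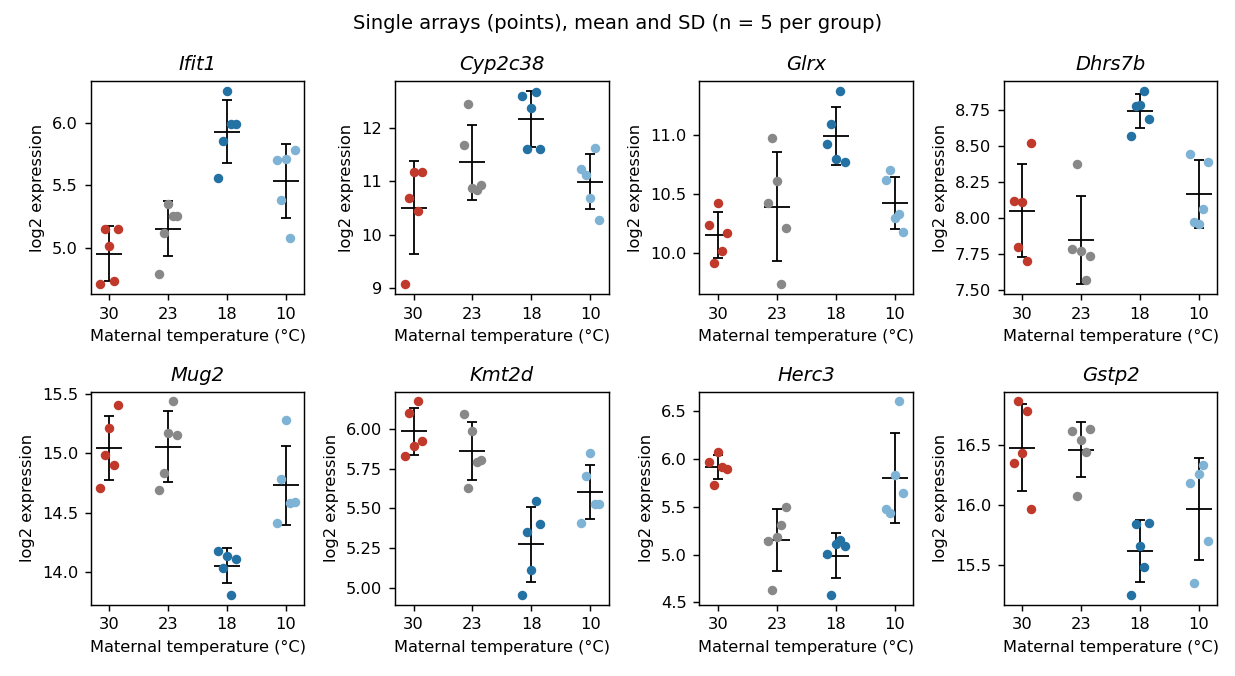
Log2 expression of 8 genes on single arrays (points) for maternal temperatures of 30, 23, 18 and 10 °C, with the mean (short line) and SD (bars) of 5 arrays each. In every panel the 18 °C points lie apart from the 30 °C points, with the lower 4 genes lowest in 18 °C sons.

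The interferon response list leaned to the 18 °C sons. Of 39 described members 32 were higher and 7 lower, with a median of 0.29 against -0.02 for all described clusters, and 15 of the 39 had an unadjusted p under 0.05 in that direction against 4.7% of described clusters. None passed after adjustment. The list's mean deviation from the 20-array mean was 0.06, 0.04, 0.25, 0.14 and 0.21 in 18 °C animals and -0.11, -0.49, -0.07, -0.06 and -0.10 in 30 °C animals. The groups did not overlap, and 30 °C animal 5 was far below the rest; without it 29 of 39 were higher, 9 had an unadjusted p under 0.05 and the median was 0.23.

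Among its members, Lgals3bp, a secreted glycoprotein that binds galectins, differed by 0.67 ± 0.17 (limma adjusted p = 0.352). Usp18, which removes ISG15 from proteins and restrains interferon receptor signalling, stood at 6.69, 6.83, 7.49, 7.54 and 7.26 in 18 °C animals and 6.41, 5.90, 6.59, 6.91 and 5.92 in 30 °C animals. The 3 brightest arrays were 18 °C animals 4, 5 and 7, but animals 1 and 3 lay below 30 °C animal 7, so the groups overlapped. Its difference was 0.82 ± 0.24 (limma adjusted p = 0.398). Rtp4, a chaperone of receptors with antiviral activity, differed by 0.57 ± 0.17. Ifit3b, shown above, stood at 8.12, 8.03, 8.66, 7.92 and 7.99 in 18 °C animals and 6.97, 6.12, 7.57, 7.70 and 8.20 in 30 °C animals, with 18 °C animal 4 high and 30 °C animal 5 low. It differed by 0.83 ± 0.27 and its near copy Ifit3 by 0.72 ± 0.29, or by 0.53 and 0.45 without 30 °C animal 5, and the probes may not separate them. Gbp3, a guanylate-binding protein of the interferon gamma response, differed by 0.33 ± 0.14.

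Macrophage markers were mostly higher as well. Of 18 described Kupffer cell and macrophage markers, of 20 listed, 16 were higher in 18 °C sons, with a median of 0.32. Their mean deviation ran from -0.12 to 0.51 on 18 °C arrays and from -0.40 to 0.33 on 30 °C arrays, with 18 °C animals 1 and 5 and 30 °C animal 4 high. On 18 °C animals 4 and 7, the highest in interferon genes, the macrophage mean was -0.12 and -0.11. Ly86, a partner of a Toll-like receptor family member on myeloid cells, stood at 7.29, 7.13, 6.81, 7.59 and 6.65 in 18 °C animals and 6.46, 6.48, 6.28, 6.61 and 6.44 in 30 °C animals, with no overlap and a difference of 0.64 ± 0.20 (limma adjusted p = 0.403). Adgre1, a surface receptor typical of mouse macrophages, stood at 7.74, 6.42, 6.31, 7.10 and 6.73 in 18 °C animals and 6.93, 6.20, 6.11, 6.15 and 6.29 in 30 °C animals, where 18 °C animal 1 was the highest and the groups overlapped. Marco, a scavenger receptor, was at 6.82 and 7.74 in 18 °C animals 1 and 5 and between 4.36 and 4.95 on the other 8 arrays. In whole tissue, more cells of a type and more RNA per cell cannot be told apart. The part of macrophages in the interferon values was not tested. Of the listed T and NK cell markers 1 was described, of B and plasma cell markers 1 and of neutrophil and monocyte markers 0.

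Antigen processing genes went partly along. Of 16 immunoproteasome and antigen processing genes 10 were higher, with a median of 0.07. Psmb9, a catalytic subunit of the immunoproteasome, differed by 0.76 ± 0.26 (limma adjusted p = 0.449), Tap1, a subunit of the peptide transporter into the endoplasmic reticulum, by 0.43 ± 0.19, and Psme1, a subunit of the proteasome activator, by 0.31 ± 0.12. The arrays of both groups overlapped in all 3 genes. Of 30 subunits of the ordinary proteasome 15 were higher and 15 lower.

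Fatty acid synthesis genes were higher in 18 °C sons without exception in direction. All 19 described members had a higher mean, with a median of 0.76, and 10 had an unadjusted p under 0.05 against 4.7% of described clusters. Me1, malic enzyme, which supplies NADPH for lipid synthesis, stood at 16.09, 14.51, 15.14, 16.69 and 14.71 in 18 °C animals and 13.19, 12.33, 13.86, 13.50 and 15.28 in 30 °C animals. Animals 1 and 5 of the 18 °C group were the 2 brightest arrays and 30 °C animal 8 lay among the 18 °C values, so the groups overlapped. The difference was 1.79 ± 0.44 (limma adjusted p = 0.352), and 23 °C sons were intermediate at 14.75 ± 0.40.

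Fasn, the fatty acid synthase, stood at 15.30, 14.60, 15.10, 16.26 and 12.79 in 18 °C animals and 11.95, 11.83, 14.27, 13.54 and 14.69 in 30 °C animals. The lowest arrays were 30 °C animals 4 and 5, the next 18 °C animal 7, and the difference was 1.55 ± 0.71 (limma adjusted p = 0.578). Elovl6, which lengthens palmitate, stood at 15.51, 14.17, 14.92, 16.12 and 13.30 in 18 °C animals and 12.52, 12.29, 14.19, 12.59 and 14.71 in 30 °C animals, with the same animals low and 30 °C animal 7 among them. It differed by 1.54 ± 0.55, Acacb, the acetyl-CoA carboxylase that makes malonyl-CoA at mitochondria, by 1.10 ± 0.39, and Thrsp, a lipogenic nuclear protein induced by carbohydrate and thyroid hormone, by 2.40 ± 0.99. Scd1, the desaturase of stearate and near the top of the deposited values (19.93), stood at 19.76, 19.42, 19.55, 19.79 and 19.47 in 18 °C animals and 17.58, 18.24, 19.65, 19.16 and 19.81 in 30 °C animals. Animals 4 and 5 of the 30 °C group were low, animals 6 and 8 were level with the 18 °C group, and the difference was 0.71 ± 0.28 (limma adjusted p = 0.525), or 0.39 without 30 °C animal 4.

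The list's mean on single arrays was 0.81, 0.17, 0.59, 1.28 and -0.19 in 18 °C animals and -0.91, -1.25, 0.17, -0.29 and 0.56 in 30 °C animals. The range inside each group exceeded the gap between their means of 0.53 ± 0.57 and -0.35 ± 0.75 (SD, n = 5). The count of members with an unadjusted p under 0.05 was 3 in place of 10 without 30 °C animal 5, 4 without 30 °C animal 4 and 5 without 18 °C animal 1 or 5. The medians were then 0.55, 0.59, 0.74 and 0.50.

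Cholesterol synthesis followed the same arrays. All 18 described members had a higher mean in 18 °C sons, with a median of 0.86, and 7 had an unadjusted p under 0.05 against 4.7% of described clusters. The list's mean was 0.56, 0.35, 0.38, 1.05 and 0.23 in 18 °C animals and -0.56, -2.16, 0.28, 0.32 and 0.48 in 30 °C animals. Only 30 °C animals 4 and 5 were below all others. Without 30 °C animal 5, 17 of 18 were higher, the median was 0.39 and 0 had an unadjusted p under 0.05. The count of 7 became 2 without 18 °C animal 1 or 5, 4 without 18 °C animal 4, 3 without 30 °C animal 4 and 11 without 30 °C animal 8.

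Nsdhl, a sterol dehydrogenase, stood at 15.61, 15.16, 15.10, 15.80 and 15.46 in 18 °C animals and 14.52, 11.34, 15.12, 15.02 and 14.95 in 30 °C animals, where 9 arrays lay within 14.52 to 15.80 and 30 °C animal 5 alone far below. It differed by 1.23 ± 0.57. Mvd, the mevalonate pyrophosphate decarboxylase, stood at 9.34, 9.62, 9.40, 10.36 and 8.62 in 18 °C animals and 7.22, 6.01, 8.79, 8.93 and 8.74 in 30 °C animals and differed by 1.53 ± 0.57 (limma adjusted p = 0.488). Msmo1, a methylsterol oxidase, stood at 11.48, 11.06, 11.12, 11.54 and 11.39 in 18 °C animals and 10.22, 7.96, 11.03, 11.02 and 10.77 in 30 °C animals. It was the 1 member without overlap, its lowest 18 °C array just above 30 °C animals 6 and 7, and it differed by 1.12 ± 0.46 (limma adjusted p = 0.535). Hmgcs1 differed by 1.15 ± 0.58 and Hsd17b7, a sterol reductase, by 0.84 ± 0.36. Without 30 °C animal 5 the difference was 0.56 in Msmo1, 0.52 in Nsdhl, 0.52 in Hmgcs1 and 0.52 in Hsd17b7.

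**Figure D3:**
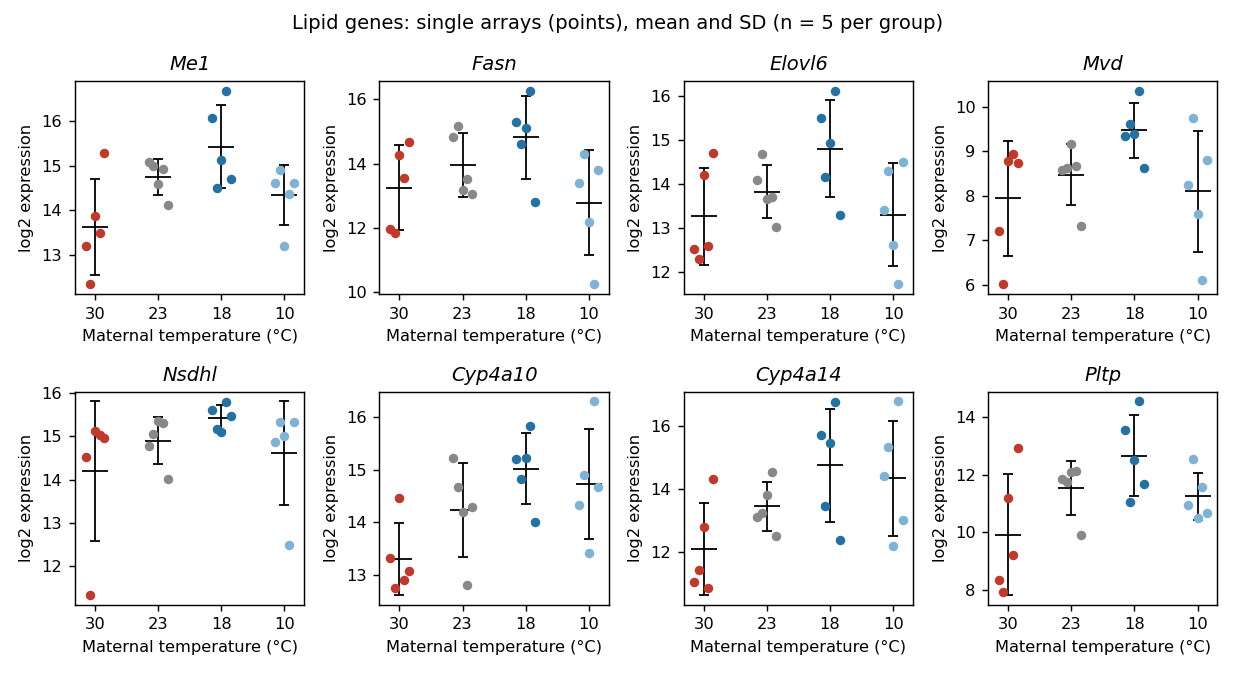
Log2 expression of 8 lipid genes on single arrays (points) for maternal temperatures of 30, 23, 18 and 10 °C, with the mean (short line) and SD (bars) of 5 arrays each. The 18 °C means are the highest of the 4 groups in every panel, and the 30 °C and 18 °C points overlap in all 8. Animal 5 is the lowest 30 °C point in every panel but Cyp4a14.

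Targets of PPARA were mostly higher. Of 23 described 19 were higher and 4 lower, with a median of 0.54, or 0.36 without 18 °C animal 5. An unadjusted p under 0.05 was reached by 8 of them in the higher direction, against 4.7% of described clusters, or by 4 without 30 °C animal 7. Cyp4a10, a fatty acid omega-hydroxylase and classic PPARA target, stood at 15.21, 14.83, 15.22, 15.82 and 13.998 in 18 °C animals and 13.31, 12.74, 14.46, 12.89 and 13.08 in 30 °C animals. Only 18 °C animal 7 lay below a 30 °C array, animal 6, and the difference was 1.72 ± 0.46 (limma adjusted p = 0.352). Its relative Cyp4a14 stood at 15.72, 13.44, 15.45, 16.76 and 12.37 in 18 °C animals and 11.03, 11.41, 12.78, 10.85 and 14.31 in 30 °C animals and had a larger but noisier difference of 2.67 ± 0.82 (limma adjusted p = 0.403), with 18 °C animals 3 and 7 inside the 30 °C range. In Cyp4a10 the 10 °C mean of 14.72 ± 1.05 and in Cyp4a14 that of 14.34 ± 1.84 were nearer the 18 °C than the 30 °C mean. Cyp4a genes are near copies, which the probes may not separate.

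Acaa1b, a peroxisomal thiolase, stood at 13.87, 12.97, 13.99, 14.30 and 13.41 in 18 °C animals and 12.24, 12.80, 12.75, 12.48 and 13.31 in 30 °C animals and differed by 0.99 ± 0.24 (limma adjusted p = 0.352), the groups meeting at 18 °C animal 3 and 30 °C animal 8. Aldh3a2, a fatty aldehyde dehydrogenase, differed by 0.62 ± 0.22, with 18 °C animal 3 low. Slc25a20, the carnitine-acylcarnitine carrier of the mitochondrial membrane, stood at 12.41, 12.24, 12.49, 12.61 and 12.13 in 18 °C animals and 11.95, 12.10, 11.996, 11.74 and 11.83 in 30 °C animals. Its arrays did not overlap, by a margin of 12.13 against 12.10, and it differed by 0.45 ± 0.19 (limma adjusted p = 0.535). Plaat3, a phospholipase and acyltransferase, stood at 5.14, 5.46, 5.20, 6.20 and 5.81 in 18 °C animals and 4.56, 4.35, 4.74, 4.94 and 4.76 in 30 °C animals, without overlap, and differed by 0.89 ± 0.22 (limma adjusted p = 0.352). Its signal is weak, with a 20-array mean of 5.16.

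Of 18 enzymes of mitochondrial fatty acid oxidation 12 were higher, with a median of 0.08, or 0.04 without 18 °C animal 5. Acadm, the medium-chain acyl-CoA dehydrogenase, differed by 0.32 ± 0.15, and Cpt1a, the gatekeeper of fatty acid entry into mitochondria, by -0.15 ± 0.22 (limma adjusted p = 0.9). Ppargc1a, a coactivator of mitochondrial and gluconeogenic genes, stood at 8.92, 8.88, 8.86, 10.44 and 8.74 in 18 °C animals and 8.17, 7.97, 8.42, 8.61 and 9.18 in 30 °C animals, with 18 °C animal 5 high and a difference of 0.70 ± 0.33, or 0.38 without that array. Fgf21, a liver hormone of fasting under PPARA, had a mean of 2.95 and is not among the described clusters.

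Oxidative phosphorylation subunits were slightly but broadly higher. Of 56 described 47 were higher and 9 lower, with a median of 0.08 against -0.02 over all described clusters, or 0.04 with 37 higher without 30 °C animal 4. Cox5b, a subunit of cytochrome c oxidase, stood at 14.62, 14.62, 14.49, 14.55 and 14.33 in 18 °C animals and 13.94, 13.99, 14.22, 14.21 and 14.25 in 30 °C animals. It did not overlap and differed by 0.40 ± 0.12 (limma adjusted p = 0.383). Cox6a1, of the same complex, differed by 0.44 ± 0.12, where 18 °C animal 7 lay just below 30 °C animal 6, and Ndufa8, a complex I subunit, by 0.34 ± 0.13, without overlap. Mitochondrial ribosomal proteins were higher in 44 of 69, with a median of 0.04.

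Genes of glucose handling were mostly higher. Of 18 gluconeogenic genes 14 were higher, with a median of 0.15 against -0.02 for all described clusters, of which 46.8% were higher. G6pc, glucose-6-phosphatase, the last step of glucose release, stood at 16.41, 16.83, 16.11, 16.47 and 16.30 in 18 °C animals and 13.73, 16.56, 16.47, 15.49 and 14.17 in 30 °C animals. The 18 °C arrays were close together, while 30 °C animals 4 and 8 were far below and animals 5 and 6 level with them, and the difference was 1.14 ± 0.45 (limma adjusted p = 0.528), or 0.75 without 30 °C animal 4. Pck1, which opens gluconeogenesis from oxaloacetate, stood at 16.97, 16.50, 17.36, 17.28 and 17.05 in 18 °C animals and 17.08, 17.53, 16.38, 16.99 and 16.78 in 30 °C animals, and its difference of 0.08 ± 0.28 was smaller than its error and changed sign when 18 °C animal 4 or 30 °C animal 6 was left out. Gpt2, alanine aminotransferase, differed by 0.80 ± 0.29 and Sik1, a kinase that restrains gluconeogenic transcription, by -0.62 ± 0.29.

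Glycolytic and fructolytic genes were higher in 11 of 14, with a median of 0.28, and the arrays of both groups overlapped in every member. Pklr, liver pyruvate kinase, stood at 14.46, 13.66, 13.97, 14.10 and 13.02 in 18 °C animals and 12.36, 12.11, 13.56, 12.13 and 12.97 in 30 °C animals, with only 30 °C animal 6 above 18 °C animal 7, and differed by 1.21 ± 0.38 (limma adjusted p = 0.408). Pdk1, which shuts pyruvate out of the mitochondrion's oxidation, differed by 0.86 ± 0.28. Aldoc, the aldolase C isoform, which is not on that list, stood at 9.92, 10.04, 9.70, 10.83 and 9.77 in 18 °C animals and 8.99, 7.01, 9.52, 9.19 and 8.96 in 30 °C animals. It did not overlap although 18 °C animal 4 came close to 30 °C animal 6, and it differed by 1.32 ± 0.38 (limma adjusted p = 0.372), or 0.89 without 30 °C animal 5. Mlxipl, the glucose-sensing factor ChREBP, was lower by contrast at -0.52 ± 0.19 (limma adjusted p = 0.472), and Txnip, one of its targets, differed by 0.54 ± 0.24.

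Glycogen genes divided evenly, with 7 of 14 higher and a median of 0.03. Ppp1r3c, which brings protein phosphatase 1 to glycogen, stood at 8.53, 11.54, 10.43, 11.27 and 11.61 in 18 °C animals and 12.59, 13.55, 12.58, 11.71 and 11.27 in 30 °C animals. The values were wide in both groups and lowest in 18 °C animal 1, and the difference was -1.66 ± 0.56 (limma adjusted p = 0.445), with the highest mean in 10 °C sons at 12.999 ± 0.43. Gbe1, the branching enzyme, differed by 0.51 ± 0.19.

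Insulin signalling showed no common direction. Of 20 genes 11 were higher, with a median of 0.04, and that median took either sign as single arrays were left out. Insr, the insulin receptor, stood at 14.14, 13.93, 14.30, 13.82 and 14.11 in 18 °C animals and 14.42, 14.17, 14.51, 14.03 and 14.20 in 30 °C animals and differed by -0.21 ± 0.12 (limma adjusted p = 0.698). Irs2, an adaptor of the receptor, differed by 0.47 ± 0.41, or 0.23 without 18 °C animal 5 or 30 °C animal 5, and Rictor, of the mTOR complex that activates AKT, by -0.49 ± 0.17 (limma adjusted p = 0.447). In the growth hormone and IGF axis 7 of 14 were higher. Igf1, the main growth factor secreted by liver, was at 18.74 ± 0.13 and 18.73 ± 0.14 (SD, n = 5), a difference within 0.05 of 0 in either direction when single arrays were left out. Igfbp2, an IGF carrier, differed by -0.63 ± 0.31, and Igfbp1, a carrier induced in fasting, by 1.02 ± 0.68, or 0.62 without 30 °C animal 5. Both overlapped widely.

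In bile acid synthesis, Cyp7a1 and Cyp8b1 gave large differences with large errors. Cyp7a1, the rate-limiting enzyme, stood at 17.33, 15.66, 16.77, 16.26 and 16.20 in 18 °C animals and 14.37, 12.77, 16.94, 16.21 and 15.82 in 30 °C animals. The lowest 18 °C array stood at 15.66, while the 30 °C arrays ran from 12.77 in animal 5 to 16.94 in animal 6, and the difference was 1.22 ± 0.57 (limma adjusted p = 0.587), or 0.61 without animal 5 of the 30 °C group. Cyp8b1, which sets the share of cholic acid, stood at 13.32, 13.20, 13.02, 13.81 and 13.99 in 18 °C animals and 11.60, 11.33, 13.59, 14.08 and 11.30 in 30 °C animals, where 30 °C animals 4, 5 and 8 were low and animals 6 and 7 as high as the 18 °C group. It differed by 1.09 ± 0.47. Over the whole list of 21 bile acid genes 6 were higher, with a median of -0.10. Cyp7a1 and Cyp8b1 thus differed from most of the list in direction. An unadjusted p under 0.05 was reached by 2 higher and 2 lower genes of the list, against 4.7% and 5.8% of described clusters. Among the lower ones, Amacr differed by -0.43 ± 0.16 (limma adjusted p = 0.472), and its groups overlapped.

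In lipoprotein handling 8 of 17 genes were higher, with a median of -0.02. Pltp, the phospholipid transfer protein of plasma, had the largest difference among the genes named here. It stood at 13.54, 11.04, 12.51, 14.54 and 11.66 in 18 °C animals and 8.34, 7.92, 11.19, 9.21 and 12.93 in 30 °C animals. The range inside the 30 °C group exceeded the difference of 2.74 ± 0.76 (limma adjusted p = 0.365), and 30 °C animal 8 was above 3 of the 18 °C arrays. Apoa4, an apolipoprotein that responds to liver fat, differed by 0.78 ± 0.34. Lpin1, a phosphatidate phosphatase and coactivator, differed by 1.52 ± 0.66.

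Plasma protein genes leaned the other way. Of 39 complement and coagulation genes 34 were lower in 18 °C sons and 5 higher, with a median of -0.20, and 12 had an unadjusted p under 0.05 in that direction against 5.8% of described clusters. The list's mean was -0.18, -0.08, -0.19, -0.20 and 0.02 in 18 °C animals and 0.08, 0.14, 0.07, 0.17 and 0.11 in 30 °C animals. The groups did not overlap, with 18 °C animal 7 nearest to the 30 °C group. The defining hepatocyte genes, among them albumin, were lower as well in 9 of 9, but with a median of -0.04.

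C8a, a part of the membrane attack complex, stood at 12.24, 12.63, 12.57, 12.37 and 12.76 in 18 °C animals and 13.19, 13.78, 12.94, 13.28 and 13.48 in 30 °C animals, without overlap, and differed by -0.82 ± 0.22 (limma adjusted p = 0.352). Serpind1, heparin cofactor II, stood at 16.71, 16.59, 16.58, 16.55 and 16.59 in 18 °C animals and 16.80, 17.05, 16.94, 17.14 and 17.11 in 30 °C animals. Its 18 °C arrays lay within a narrow band, all below the lowest 30 °C array, and it differed by -0.40 ± 0.11 (limma adjusted p = 0.352). F5, coagulation factor V, differed by -0.54 ± 0.15, and Proc, the anticoagulant protein C, by -0.38 ± 0.12, both without overlap.

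Acute phase proteins were lower in 18 of 22, with a median of -0.20. Hp, haptoglobin, which binds free haemoglobin, stood at 18.14, 17.92, 17.91, 17.73 and 18.16 in 18 °C animals and 18.40, 18.41, 18.22, 18.39 and 18.71 in 30 °C animals. It did not overlap and differed by -0.46 ± 0.18 (limma adjusted p = 0.508). Itih3, an inter-alpha-trypsin inhibitor chain, differed by -0.51 ± 0.16, also without overlap, and Cp, the copper carrier ceruloplasmin, by -0.44 ± 0.15, with 18 °C animal 5 above 30 °C animals 4 and 6. Of 16 alpha-macroglobulins and serpins 11 were lower, with a median of -0.11. Pzp, a relative of Mug2, stood at 17.68, 17.72, 17.72, 17.84 and 17.999 in 18 °C animals and 18.04, 18.20, 18.23, 18.28 and 18.23 in 30 °C animals, without overlap, and differed by -0.40 ± 0.13 (limma adjusted p = 0.403).

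**Figure D4:**
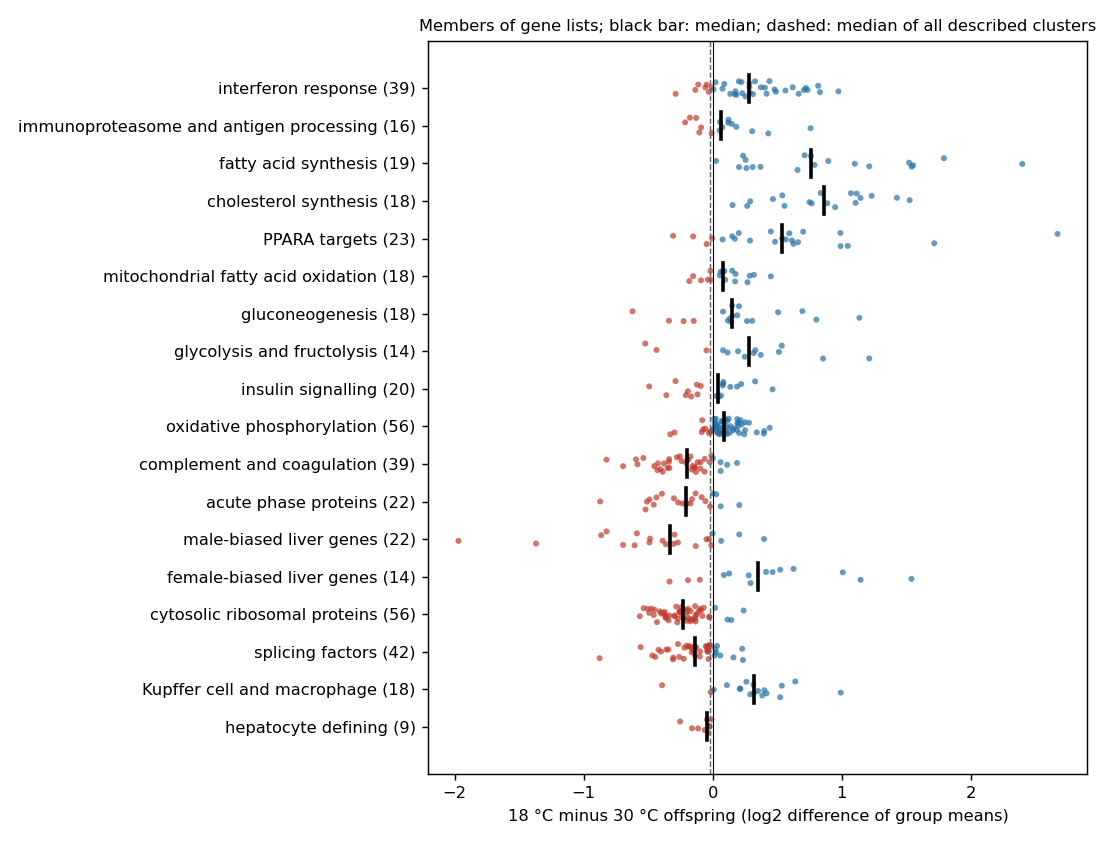
Log2 difference, 18 °C minus 30 °C sons, of each described member of 18 gene lists, blue where higher and red where lower, with the number of members beside each name, the list's median as a black bar and the median of all described clusters as a dashed line. Lipid synthesis, PPARA target and interferon members lie mostly to the right, and complement, acute phase, ribosomal and splicing members mostly to the left, within a much narrower span.

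Genes that differ between the sexes in mouse liver, all measured here in males, leaned in opposite directions. Of 22 described male-biased genes 18 were lower in 18 °C sons, with a median of -0.33, and 7 had an unadjusted p under 0.05 against 5.8% of described clusters, or 4 without 18 °C animal 5. That median was -0.22 without 30 °C animal 5 and -0.55 without 30 °C animal 8. Of 14 described female-biased genes 11 were higher, with a median of 0.35, or 0.23 without 18 °C animal 1. The male-biased mean was -0.45, 0.06, -0.45, -0.56 and 0.27 in 18 °C animals and 0.49, 0.50, 0.23, 0.18 and -0.46 in 30 °C animals. High and low arrays occurred in both groups, with 18 °C animals 1, 4 and 5 and 30 °C animal 8 low, and the same 4 arrays were the highest in female-biased genes.

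Moxd1, a male-biased monooxygenase-like gene, stood at 4.68, 5.42, 4.39, 5.21 and 5.84 in 18 °C animals and 9.91, 7.96, 6.76, 5.37 and 5.39 in 30 °C animals, with 30 °C animal 4 far above the rest. Its difference was -1.97 ± 0.72 (limma adjusted p = 0.474), or -1.26 without that array. Cyp2b9, a female-biased cytochrome P450, stood at 7.67, 5.44, 5.99, 7.002 and 4.12 in 18 °C animals and 3.60, 6.24, 4.12, 4.56 and 3.996 in 30 °C animals, widely spread, and differed by 1.54 ± 0.55. Gstp2 and Gstp1, glutathione transferases of the pi class, differed by -0.86 ± 0.20 and -0.60 ± 0.17 (limma adjusted p = 0.349 and 0.365). Gstp2 stood at 15.25, 15.84, 15.65, 15.48 and 15.85 in 18 °C animals and 16.35, 16.86, 16.43, 16.78 and 15.97 in 30 °C animals and did not overlap, its closest arrays being 18 °C animals 3 and 7 and 30 °C animal 8. The 2 genes are near copies and the probes may not separate them.

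Drug-metabolising genes as a class were even in direction. Of 27 cytochromes P450 of families 1 to 3, 14 were higher, with a median of 0.01, and of 29 conjugating enzymes 15. At an unadjusted p under 0.05, however, 6 conjugating enzymes were lower and 2 higher, against 5.8% and 4.7% of described clusters. Their arrays lay apart in 2 lower and 0 higher, against 1.29% and 0.818%. Cyp2c38, a P450 of the 2C family, had the largest difference among those P450 genes. It stood at 12.61, 11.61, 12.37, 12.68 and 11.62 in 18 °C animals and 9.06, 10.68, 11.17, 10.44 and 11.19 in 30 °C animals. All 18 °C arrays were above all 30 °C arrays, with 30 °C animal 4 lowest, and the difference was 1.67 ± 0.37 (limma adjusted p = 0.326), with 23 °C sons between at 11.36 ± 0.71. The 2C genes are close copies, so it is uncertain which of them was measured. Gstt3, a theta-class transferase, differed by 1.93 ± 0.60, its groups overlapping through 18 °C animal 7.

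Among targets of NRF2, the oxidative stress regulator, 5 of 16 were higher, with a median of -0.09. Members ran from -1.42 to 1.79, the highest being Me1, given above. Osgin1, an oxidative stress-induced growth inhibitor outside that list, stood at 9.65, 11.24, 9.16, 10.36 and 11.32 in 18 °C animals and 12.87, 12.38, 12.36, 12.89 and 11.28 in 30 °C animals. The groups met at 18 °C animals 3 and 7 and 30 °C animal 8, and the difference was -2.01 ± 0.47 (limma adjusted p = 0.352). Gclc, the catalytic subunit of glutathione synthesis, differed by -0.77 ± 0.23. Glrx, glutaredoxin, also outside that list, differed by 0.84 ± 0.19 in the other direction. Glrx stood at 10.92, 11.10, 10.80, 11.38 and 10.77 in 18 °C animals and 10.24, 9.91, 10.43, 10.02 and 10.16 in 30 °C animals, without overlap (limma adjusted p = 0.326).

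In amino acid metabolism, 15 of 24 urea cycle and amino acid breakdown genes were higher, with a median of 0.02. Of 16 methionine and one-carbon genes 12 were higher, with a median of 0.18, or 0.08 without 30 °C animal 4 and 0.11 without 30 °C animal 5. Bhmt, which remethylates homocysteine with betaine, differed by 0.55 ± 0.16 (limma adjusted p = 0.38), and Cbs, which draws homocysteine into cysteine synthesis, by -0.45 ± 0.18. Slc3a1, a subunit of the cystine and basic amino acid transporter, stood at 10.59, 10.71, 10.28, 11.13 and 10.53 in 18 °C animals and 11.47, 12.28, 11.82, 11.86 and 13.28 in 30 °C animals, without overlap and with 30 °C animal 8 highest, and differed by -1.50 ± 0.36 (limma adjusted p = 0.352). Gchfr, the feedback regulator of tetrahydrobiopterin synthesis, differed by 0.63 ± 0.16, without overlap.

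Cytosolic ribosomal proteins were lower in 52 of 56, with a median of -0.23, and 19 had an unadjusted p under 0.05 against 5.8% of described clusters. The list's mean was -0.14, -0.06, -0.08, -0.20 and -0.05 in 18 °C animals and 0.06, 0.06, 0.07, 0.28 and 0.17 in 30 °C animals, without overlap. Leaving out single arrays of either group kept the median between -0.26 and -0.18. Rpl37a, of the large subunit, stood at 11.07, 10.94, 11.03, 11.001 and 11.20 in 18 °C animals and 11.42, 11.39, 11.47, 11.82 and 11.96 in 30 °C animals, without overlap and with 30 °C animals 7 and 8 highest. It differed by -0.56 ± 0.13 (limma adjusted p = 0.332). Rpl9 differed by -0.50 ± 0.13, Rpl7 by -0.43 ± 0.12 and Rps26, of the small subunit, by -0.47 ± 0.13, all 3 without overlap. These genes have many processed pseudogenes, which the probes may not separate.

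Splicing factors were lower in 34 of 42, with a median of -0.14 and 9 at an unadjusted p under 0.05 against 5.8% of described clusters, or 5 without 18 °C animal 5. Pnisr, a nuclear speckle protein, stood at 7.80, 7.79, 7.66, 7.44 and 7.66 in 18 °C animals and 8.31, 7.96, 8.16, 8.32 and 8.39 in 30 °C animals, without overlap, and differed by -0.56 ± 0.15 (limma adjusted p = 0.352). Srsf5, a serine- and arginine-rich factor, differed by -0.88 ± 0.25, with 18 °C animal 7 inside the 30 °C range, and Son, a scaffold of speckles, by -0.47 ± 0.14.

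Chromatin and DNA methylation enzymes were lower in 14 of 25, with a median of -0.04. Beside Kmt2d, Crebbp, an acetyltransferase of enhancers, stood at 12.08, 11.82, 11.89, 11.85 and 11.63 in 18 °C animals and 12.23, 12.12, 12.31, 12.21 and 12.09 in 30 °C animals. It did not overlap, by 12.08 in 18 °C animal 1 against 12.09 in 30 °C animal 8, and differed by -0.34 ± 0.12 (limma adjusted p = 0.451). Kdm6b, a demethylase of repressive marks on histone H3, differed by -0.81 ± 0.22, and Suz12, of the polycomb complex that sets those marks, by -0.34 ± 0.13. Both overlapped.

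**Figure D5:**
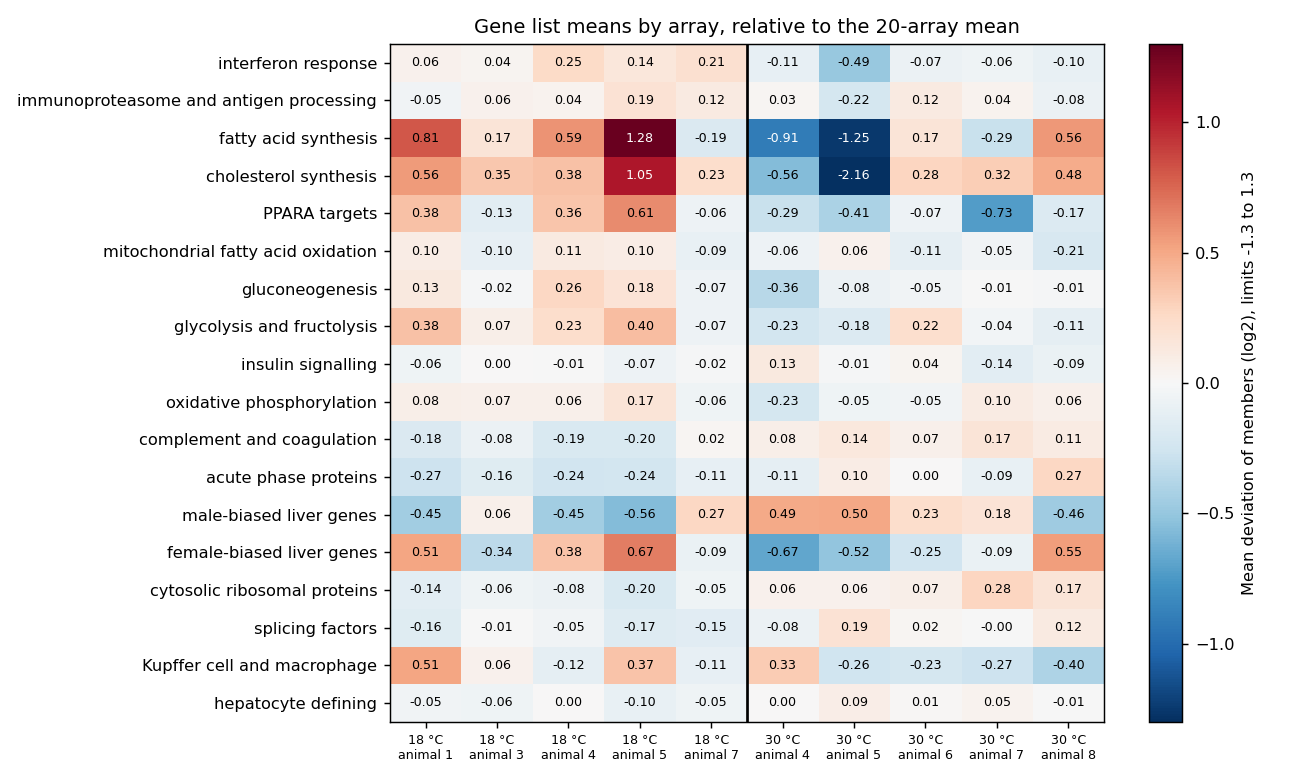
Mean deviation of the described members of 18 gene lists from their 20-array means (log2, colour, with the colour scale ending at -1.3 and 1.3) on each 18 °C array, left, and 30 °C array, right. Interferon genes are higher and complement and ribosomal genes lower on the 18 °C arrays without overlap, while lipid synthesis and sex-biased lists vary as much inside the groups, with 30 °C animals 4 and 5 lowest in both synthesis lists.

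Of the 2 cold-inducible RNA-binding proteins 1 was higher and 1 lower. Rbm3, an RNA-binding protein that cooling induces, stood at 11.90, 11.74, 11.31, 11.62 and 11.32 in 18 °C animals and 11.33, 10.41, 10.81, 11.05 and 11.78 in 30 °C animals and differed by 0.50 ± 0.22 (limma adjusted p = 0.568). Cirbp, the other such protein, stood at 6.48, 6.38, 6.55, 7.02 and 7.51 in 18 °C animals and 6.96, 6.96, 6.93, 7.60 and 7.51 in 30 °C animals and differed by -0.41 ± 0.24 in the opposite direction (limma adjusted p = 0.704). Heat shock proteins and co-chaperones were higher in 17 of 21, with a median of 0.14 against -0.02 for all described clusters. The median was 0.24 without 30 °C animal 5 and 0.10 without 18 °C animal 4 or 30 °C animal 4. Of the 21, 0 had an unadjusted p under 0.05. Hsph1, a large heat shock protein, differed by 0.91 ± 0.45, with 30 °C animal 5 as high as the 18 °C group. Endoplasmic reticulum stress genes were higher in 13 of 23, with a median of 0.03, which took either sign as single arrays were left out. Dnajb9, a chaperone of that compartment, had the largest difference among them, 1.07 ± 0.38.

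Clock genes varied from animal to animal. Evening-phase genes averaged 0.97 and 1.35 above the 20-array mean in 18 °C animals 1 and 4 and 1.35 in 30 °C animal 4, and -0.84 in 30 °C animal 5. Their median difference of 0.19 had no stable sign, being -0.10 without 30 °C animal 5. The clock score, evening minus morning genes, averaged 0.52 ± 1.46 and 0.33 ± 1.40 in the 2 groups (exact permutation p = 0.873). Fits with an array measure as a covariate gave 19 of 19 fatty acid synthesis genes higher with the clock score, at a median of 0.75, and 17 of 19 with the background control level, at a median of 1.08.

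Few cell cycle genes were bright enough to describe. Of 9 described 8 were higher, with a median of 0.30. Rrm2 and Tyms, which supply deoxynucleotides, differed by 0.77 ± 0.27 and 0.61 ± 0.23, and Mki67, a marker of dividing cells, by 0.60 ± 0.27. Cenpm, a centromere protein, stood at 6.16, 5.32, 6.12, 6.88 and 5.72 in 18 °C animals and 4.43, 4.16, 5.51, 5.25 and 4.32 in 30 °C animals and differed by 1.31 ± 0.32 (limma adjusted p = 0.352), the groups meeting at 18 °C animal 3 and 30 °C animal 6. Apart from Tyms, these genes lie near the negative controls.

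Sinusoidal endothelial markers were higher in 13 of 19, with a median of 0.11, or 0.05 without 30 °C animal 4, 0.07 without 18 °C animal 1 or 30 °C animal 7 and 0.19 without 18 °C animal 7. Lyve1, a hyaluronan receptor, stood at 8.49, 7.13, 8.41, 7.75 and 6.06 in 18 °C animals and 5.78, 6.12, 5.59, 5.40 and 8.44 in 30 °C animals, with 30 °C animal 8 as high as the brightest 18 °C arrays and 18 °C animal 7 low, and differed by 1.304 ± 0.53. Dnase1l3, a secreted nuclease, differed by 0.39 ± 0.16. Markers of pericentral and periportal hepatocytes split 6 of 12 and 4 of 10 higher.

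Several of the widest gaps between groups fell outside the lists. Slc17a8, a vesicular glutamate transporter, stood at 7.53, 7.51, 7.83, 7.53 and 6.83 in 18 °C animals and 5.65, 5.93, 6.68, 5.85 and 5.75 in 30 °C animals, without overlap although 18 °C animal 7 and 30 °C animal 6 came close, and differed by 1.47 ± 0.38 (limma adjusted p = 0.352). The transcribed pseudogene 9030619P08Rik stood at 8.12, 7.93, 7.41, 9.13 and 7.61 in 18 °C animals and 6.37, 6.58, 6.75, 6.14 and 5.91 in 30 °C animals and differed by 1.69 ± 0.43, with 18 °C animal 5 highest. Pdzk1ip1, a small membrane protein, differed by 1.34 ± 0.38, or 0.97 without 30 °C animal 5. Dhrs7b, a peroxisomal reductase of ether lipid synthesis, stood at 8.57, 8.78, 8.79, 8.88 and 8.68 in 18 °C animals and 8.12, 7.80, 8.11, 7.70 and 8.52 in 30 °C animals. Its 18 °C arrays were tightly grouped above the others, and it differed by 0.69 ± 0.17 (limma adjusted p = 0.352), with 23 °C sons at 7.85 ± 0.31, below both. Nubpl, an assembly factor of complex I, differed by 0.63 ± 0.15, without overlap. Gskip, a binding partner of GSK3, differed by 0.72 ± 0.18, and Slc15a5, a member of the peptide transporter family, by 1.12 ± 0.28. The arrays of both groups overlapped in Gskip and Slc15a5.

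On the lower side, Jun, a subunit of the AP-1 factor and an immediate early gene, stood at 5.41, 5.32, 5.76, 5.85 and 5.03 in 18 °C animals and 6.85, 8.48, 6.65, 6.06 and 6.998 in 30 °C animals, without overlap and with 30 °C animal 5 highest, and differed by -1.53 ± 0.44 (limma adjusted p = 0.372). Rhobtb2, an atypical GTPase, differed by -0.81 ± 0.19, Nkapd1 by -0.69 ± 0.17, Mllt10, a partner of the DOT1L methyltransferase, by -0.57 ± 0.14, and Dab2ip, a Ras GTPase-activating protein, by -0.66 ± 0.17, all 4 without overlap. The gene 0610010F05Rik was nearly constant in 30 °C sons, at 8.48 ± 0.06 (SD, n = 5), against 7.70 ± 0.31 in 18 °C sons, and differed by -0.78 ± 0.20.

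The 23 °C and 10 °C sons place these differences. In Ifit1 the 23 °C mean was nearer the 30 °C mean, and in Mug2 and Kmt2d likewise, at 5.86 ± 0.18 for Kmt2d against 5.98 ± 0.15 in 30 °C sons. Over the fatty acid synthesis list the means were 0.53 in 18 °C, 0.16 in 23 °C, -0.35 in 10 °C and -0.35 in 30 °C sons. Interferon genes averaged 0.14, -0.07, 0.09 and -0.17 in the same order, complement and coagulation genes -0.13, 0.06, -0.04 and 0.11, and ribosomal proteins -0.11, 0.05, -0.08 and 0.13. The 18 °C and 30 °C groups were thus the extremes of these 3 lists, and in fatty acid synthesis the 10 °C and 30 °C means were equal at this precision. These are values side by side, with no test of the 23 °C and 10 °C groups made.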

How the data were processed

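The authors' deposited table holds log2 expression values, 1 per row and array. Per the submitters' processing notes it was made with RMA, which subtracts background, equalises array distributions by quantiles and combines probes, and with the Transcriptome Analysis Console; versions and settings are not given in the sources used here. Quantile normalisation hides a shift of all transcripts together, and dim probes are compressed. Of 28846 rows, 6640 are controls (5222 negative). Gene names come from GEO's platform annotation, matched to RefSeq; 2634 clusters have no name. The fit was limma's (version 3.58.1, under R 4.3.3), with lmFit and eBayes, 1 mean per maternal temperature and 20 arrays. It used two-sided tests and Benjamini-Hochberg adjustment over 22206 clusters. Errors of differences are SE. Array measures had exact permutation tests, whose smallest p is 0.0079. The fit was tested on simulated data.

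Members and gene lists were chosen with earlier results of these data known. Named genes are the 12 with the smallest p in each direction, the 5 widest without overlap, up to 4 per list and a set of metabolic genes, some of which are not reported here; Ifit3b, Ifit3, Gbp3 and Hmgcs1 were added for their promoters, and were chosen after their values were seen. In a list a gene's brightest cluster counts. Animal numbers were not used to pair arrays across groups. Motifs were sought in RefSeq promoters (GRCm38.p6). Alternatives are in the closing part.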

Additional observations from a re-analysis of the deposited data

Results flagged for a closer look

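A single array stood far from the other 4 of its group, by Dixon's gap test, in 24 of the 330 groups of 5 arrays examined, each a named gene or list in 1 temperature group. The test marks about 5% of groups by chance, or 16.5 here. The values follow, with no explanation tested.

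Animal 5 of the 30 °C group was the low array in Aldoc (log2 7.01), Msmo1 (7.96) and Nsdhl (11.34), and its mean deviation over the interferon response list was -0.49. Animal 4 of that group was the high array in Mki67 (5.12), Adgre1 (6.93) and the Kupffer cell and macrophage list (0.33), and the low array in the gluconeogenesis list (-0.36). Slc17a8 was high in 30 °C animal 6 (6.68), and Lyve1 (8.44) and the NRF2 target and metallothionein list (0.75) were high in 30 °C animal 8.

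Among 18 °C arrays, animal 5 was high in Pdzk1ip1 (8.499), Ppargc1a (10.44), Acacb (9.33), Cp (17.13) and the phase II conjugation list (0.18), and low in Rpl9 (13.44). Animal 1 was high in Txnip (11.93) and Serpind1 (16.71). Animal 3 was low in Herc3 (4.58), Aldh3a2 (14.55) and the cytochrome P450 list (-0.12). Animal 4 was high in Ifit3b (8.66) and 0610010F05Rik (8.24).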

How the results depend on the processing

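The count of described clusters passing limma's adjusted p of 0.05 was 0 in the reported analysis and under the alternatives except these: 1 with an intensity trend and robust variance (Mug2, adjusted p = 0.0139), 2 with only the clusters above the negative controls fitted (Ifit1 at 0.0323 and Mug2 at 0.0359), and 0 to 2 when single arrays were left out, with Ifit1 passing without 18 °C animal 1 (0.0474) and Ifit1 (0.0250) and Herc3 (0.0428) without 10 °C animal 6. The count at an unadjusted p under 0.05 was 988, ran from 840 to 1053 when single arrays were left out, and was 610 with a threshold at the 95th percentile of the negative controls, 7.58, which keeps fewer clusters. With a replicate block on the animal number, 0 passed and 672 had an unadjusted p under 0.05. Same-numbered arrays of both groups correlated at 0.071, -0.237 and 0.066. Only 3 numbers are shared, too few to decide whether the numbers pair arrays. Pck1 changed sign without 18 °C animal 4 (-0.00103) or 30 °C animal 6 (-0.0619), and ranged from -0.0619 to 0.22 over arrays left out. Igf1 changed sign with the background control level as a covariate (-0.0415), with the replicate block (-0.00487) and without 18 °C animal 1 or 3 or 30 °C animal 7 (-0.0398, -0.0166 and -0.0497), ranging from -0.0497 to 0.0443. The cause of these changes was not tested. Of 3220 other values for 115 genes, 3207 kept their direction and side of the threshold. The evening clock median became -0.39 with the background covariate. Each group holds 5 arrays, which bounds the precision, and signals near the negative controls are compressed.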
